A study of Mus musculus with 18 samples.

Results

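Livers of mice given carbon tetrachloride (CCl4) for 10 weeks were compared with livers of mice given it for 6 weeks, across all genes. The comparison uses 6 of the 18 arrays of the series, 3 per week, and was made on the log2 values that the study deposited. The mice were male C57Bl/6N, and both groups had intraperitoneal CCl4 on 2 days of each week (1.6 g/kg, dissolved in olive oil), with killing 2 days after the last injection and RNA taken from the right liver lobe. By the labels the week 6 mice were 16 weeks old and the week 10 mice 20 weeks old, so that age and weeks of CCl4 cannot be told apart. The other 12 arrays (controls and CCl4 for 2, 4 or 8 weeks, 3 each) entered the same model and are used as a description. The labels give the control mice as 20 weeks old, but the sources differ on the week of the study at which they were taken and on whether they were given oil or left untreated, which bears on every value set against control here.

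CCl4 is a solvent that pericentral hepatocytes turn into a radical through the cytochrome P450 enzyme Cyp2e1. The radical kills these cells, the surviving hepatocytes divide to replace them, macrophages clear the debris, and hepatic stellate cells turn into myofibroblasts that lay down collagen. Repeated dosing keeps injury, regeneration and scarring going side by side, and a liver sampled shortly after an injection shows where it stands in that cycle as well as how scarred it is.

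Replicates 1 and 2 of week 6 were nearly alike. Over 2643 genes with a mean log2 value above 8, the SD of their differences was 0.116, while the 17 other pairs of arrays within a group gave 0.203 to 0.439. Their mean was therefore taken as 1 sample, which leaves n = 2 at week 6, and values from 18 separate arrays are given beside those from 17 samples. The labels describe the arrays of a group as biological replicates and do not say whether replicates 1 and 2 of week 6 are 1 mouse. The p-values set each difference against a spread between samples that is shared by all 6 groups, not that of weeks 6 and 10 alone. The hepatocyte markers were present, but the brightest of them cannot show a shift: albumin (Alb) stood at 14.12 on all 6 arrays, the highest value in the data. Replicate 2 of week 10 carried RNA of pancreatic acinar cells (chymotrypsinogen, Ctrb1, 7.67 against 4.50 to 4.63 on the other 5 arrays, and carboxypeptidase Cpb1, 6.42 against 3.80 to 3.92), and some values are also given without that array.

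The week 6 livers stood out for the genes by which cells divide. With 17 samples, 3 genes passed the test (limma, fold change above 1.5 with a p under 0.05 after Benjamini-Hochberg adjustment), all 3 fell, and each stands on the list of mitosis genes. Kif2c (a kinesin that takes apart microtubules at the kinetochore) fell 2.30-fold, Cip2a (an inhibitor of the phosphatase PP2A) 3.03-fold and Cenpf (a kinetochore protein) 1.81-fold. These 3 are 0.013% of the 23111 genes tested. The calls were not stable: in 12 of the 18 runs that left out 1 array, among them each control array, replicates 2 and 3 of week 6 and replicates 1 and 3 of week 10, none of the 3 genes passed. No gene rose at that threshold in limma (0%), where 895 genes (3.87%) were higher and 1002 (4.34%) were lower at an unadjusted p under 0.05. With 18 arrays, 48 genes fell (0.208%) and 17 rose (0.0736%), and for all 65 the arrays of weeks 6 and 10 did not overlap. Without regard to p, 201 genes (0.87%) were lower and 106 (0.459%) higher by more than 1.5-fold with no overlap between the 6 arrays. The median difference over all genes was 0.003 on the log2 scale, with quartiles of -0.05 and 0.06.

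**Figure D1:**
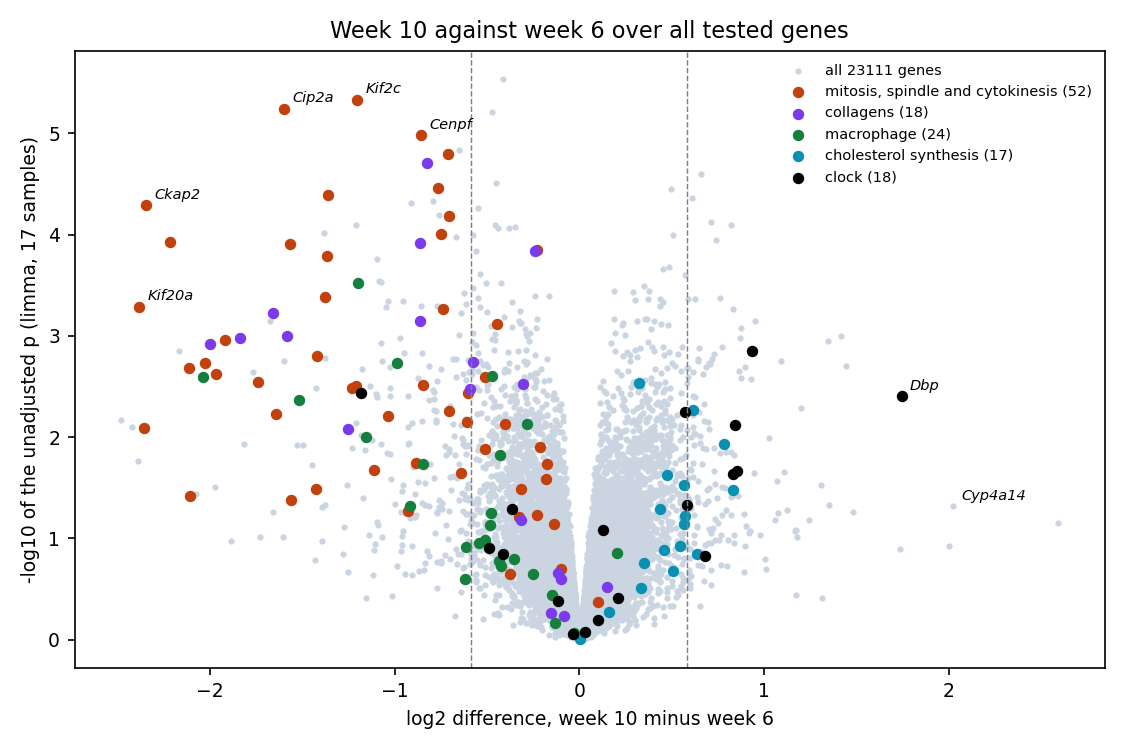
Each point is 1 of 23111 genes, with the log2 difference of week 10 minus week 6 on the horizontal axis and -log10 of the unadjusted limma p (17 samples) on the vertical axis; dashed lines mark a 1.5-fold difference, and numbers in brackets count the measured members of a list. Genes of mitosis, collagens and macrophages lie mostly on the left, genes of cholesterol synthesis on the right, and clock genes on both sides.

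Genes of the late cell cycle share promoter elements: the CHR (TTTGAA), which the MuvB complexes use to hold such genes silent in resting cells and to turn them on before mitosis, and CCAAT boxes, which bind the factor NF-Y. The windows from 250 bases before to 50 bases after the start site are shown for the 3 genes that fell, to make these letters visible, and for Ccnb2 (cyclin B2) and Cdc20 (the activator of the anaphase promoting complex), chosen after their values were seen because their elements are many. The sequences are from RefSeq (GRCm38.p6), are written 5' to 3' along the gene's strand, and have matches to TTTGAA and CCAAT in capitals, on either strand.
Kif2c, chr4:117178723-117179022, - strand: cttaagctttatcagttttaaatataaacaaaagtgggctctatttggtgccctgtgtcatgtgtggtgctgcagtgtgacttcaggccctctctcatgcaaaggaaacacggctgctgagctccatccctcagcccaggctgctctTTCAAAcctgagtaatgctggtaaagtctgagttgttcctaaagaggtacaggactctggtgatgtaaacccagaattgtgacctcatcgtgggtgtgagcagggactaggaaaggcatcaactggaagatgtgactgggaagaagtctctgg
Cip2a, chr16:48993938-48994237, + strand: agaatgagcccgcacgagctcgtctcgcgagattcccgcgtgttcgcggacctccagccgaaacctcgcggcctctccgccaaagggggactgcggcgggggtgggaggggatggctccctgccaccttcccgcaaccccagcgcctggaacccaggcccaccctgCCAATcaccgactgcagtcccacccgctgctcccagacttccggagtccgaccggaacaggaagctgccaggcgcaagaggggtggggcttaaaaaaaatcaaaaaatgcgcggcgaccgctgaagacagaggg
Cenpf, chr1:189688037-189688336, - strand: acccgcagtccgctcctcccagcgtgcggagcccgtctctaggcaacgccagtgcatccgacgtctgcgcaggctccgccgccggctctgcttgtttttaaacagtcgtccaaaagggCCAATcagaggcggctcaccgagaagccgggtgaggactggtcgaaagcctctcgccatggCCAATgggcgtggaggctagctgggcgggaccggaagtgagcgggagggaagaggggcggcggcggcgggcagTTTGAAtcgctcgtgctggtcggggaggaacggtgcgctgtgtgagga
Ccnb2, chr9:70421505-70421804, - strand: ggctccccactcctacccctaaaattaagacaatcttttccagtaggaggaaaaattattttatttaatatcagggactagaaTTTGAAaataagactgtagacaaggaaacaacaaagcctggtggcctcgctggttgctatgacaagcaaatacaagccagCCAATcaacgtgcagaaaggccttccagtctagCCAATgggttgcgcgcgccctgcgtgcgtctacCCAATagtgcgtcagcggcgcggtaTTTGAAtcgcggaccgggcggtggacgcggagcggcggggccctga
Cdc20, chr4:118437294-118437593, - strand: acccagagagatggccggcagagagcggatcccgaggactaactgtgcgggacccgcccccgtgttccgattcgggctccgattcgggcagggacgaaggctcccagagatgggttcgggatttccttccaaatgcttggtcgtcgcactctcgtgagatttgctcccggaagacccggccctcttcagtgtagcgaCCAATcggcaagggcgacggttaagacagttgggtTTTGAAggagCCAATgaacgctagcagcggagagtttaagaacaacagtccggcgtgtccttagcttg
Kif2c holds the CHR letters on the opposite strand, as TTCAAA, starting at position -103 from the start site, and no CCAAT. Cip2a holds 1 CCAAT, at position -84, and no CHR in this window. Cenpf has TTTGAA 3 bases after the start and CCAAT at -132 and -71. Cdc20 has TTTGAA at -18 between CCAAT boxes at -53 and -8, and Ccnb2 has TTTGAA at -167 and 5 with CCAAT at -87, -54 and -21. No match of one motif overlaps a match of the other in these 5 windows. Of the 46 genes of the mitosis list with a window, 34 (73.9%) held TTTGAA and 35 (76.1%) held CCAAT, and 28 (60.9%) held both. Among all 27025 genes with a window the shares were 20.2%, 41.1% and 7.97%, and among the 17496 measured here 17.8%, 41.9% and 7.19%. In the list of DNA replication genes, TTTGAA stood in 3 of 25 windows (12%) and CCAAT in 16 (64%). A match is a string of letters and was not tested as a site.

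Values on the single arrays show how wide the gap was. Kif2c read 5.34, 5.61 and 5.67 on replicates 1, 2 and 3 of week 6 and 4.38, 4.66 and 4.08 on those of week 10. It differed by -1.20 on the log2 scale (SE 0.159, limma adjusted p = 0.0358), and the lowest week 6 array lay above the highest week 10 array. Cip2a read 5.22, 6.25 and 6.18 at week 6 and 4.34, 4.66 and 4.08 at week 10, a difference of -1.60 (SE 0.216, adjusted p = 0.0358). Its 2 nearly alike arrays lay farther apart here than in most genes. Cenpf read 5.05, 5.28 and 5.25 against 4.37, 4.56 and 4.10, a difference of -0.86 (SE 0.123, adjusted p = 0.0487). The control means of the 3 genes were 3.92, 3.97 and 4.16, so that replicate 3 of week 10 lay within 0.165 of control for each, while every week 6 array lay above control by 0.89 or more. A further 2 genes had an adjusted p of 0.0358 with a smaller change, Pclaf, a partner of PCNA, at -0.41 and Slc37a2, a sugar phosphate transporter of macrophages, at -0.47.

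Of the 52 genes of mitosis, spindle and cytokinesis, 51 had a lower mean at week 10. The 3 genes above were called with 17 samples and 16 with 18 arrays (30.8%, against 0.208% of all genes), and 35 (67.3%, against 0.87%) were lower by more than 1.5-fold with no overlap. Their median difference was -0.87, with quartiles of -1.56 and -0.49. The list was written with earlier results of these data known, and its counts are a description.

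Among the kinesins and regulators of cytokinesis the differences ran from wide to small, with Kif4 at -0.40 and Kif14 at -0.18 and neither called. Kif20a (a kinesin of the central spindle) read 7.58, 7.55 and 7.49 at week 6 and 5.04, 5.92 and 4.47 at week 10, a difference of -2.38 (adjusted p = 0.157 with 17 samples and 0.0372 with 18 arrays). Week 6 was tight and week 10 spread over 1.45 log2 units, all of it below week 6. Anln (anillin, the scaffold of the contractile ring) read 6.18, 6.71 and 5.85 against 4.58, 4.98 and 4.17, a difference of -1.57 (0.0803 and 0.0206). Ect2, which activates RhoA at the cleavage furrow, read 8.58, 8.75 and 8.05 against 6.35, 6.95 and 4.70, and its difference of -2.36 did not pass with either set (0.37 and 0.121). Racgap1, its partner in the central spindle, had a difference of -1.38 (0.154 and 0.0471).

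Kinetochore and checkpoint genes had lower values as well. Nuf2 (a subunit of the NDC80 complex that holds microtubules) read 6.79, 6.95 and 6.59 at week 6 and 5.003, 5.227 and 4.203 at week 10, a difference of -1.92 (0.209 and 0.0478). Cenpe (a kinetochore kinesin) read 5.56, 6.13 and 5.88 against 4.47, 4.88 and 4.17, a difference of -1.36 (0.07 and 0.0206). Bub1b (BubR1, of the spindle checkpoint) read 4.99, 4.95 and 4.97 against 4.28, 4.37 and 4.13, with a difference of -0.71 (0.0532 and 0.0121). For Nuf2 and Bub1b each week 6 array lay above each week 10 array by 0.584 or more. Cdc20, which starts anaphase, read 7.81, 7.81 and 7.75 against 5.94, 5.85 and 4.90, a difference of -2.22 (0.0799 and 0.0206), and replicate 3 of week 10 lay below the control mean of 5.15.

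**Figure D2:**
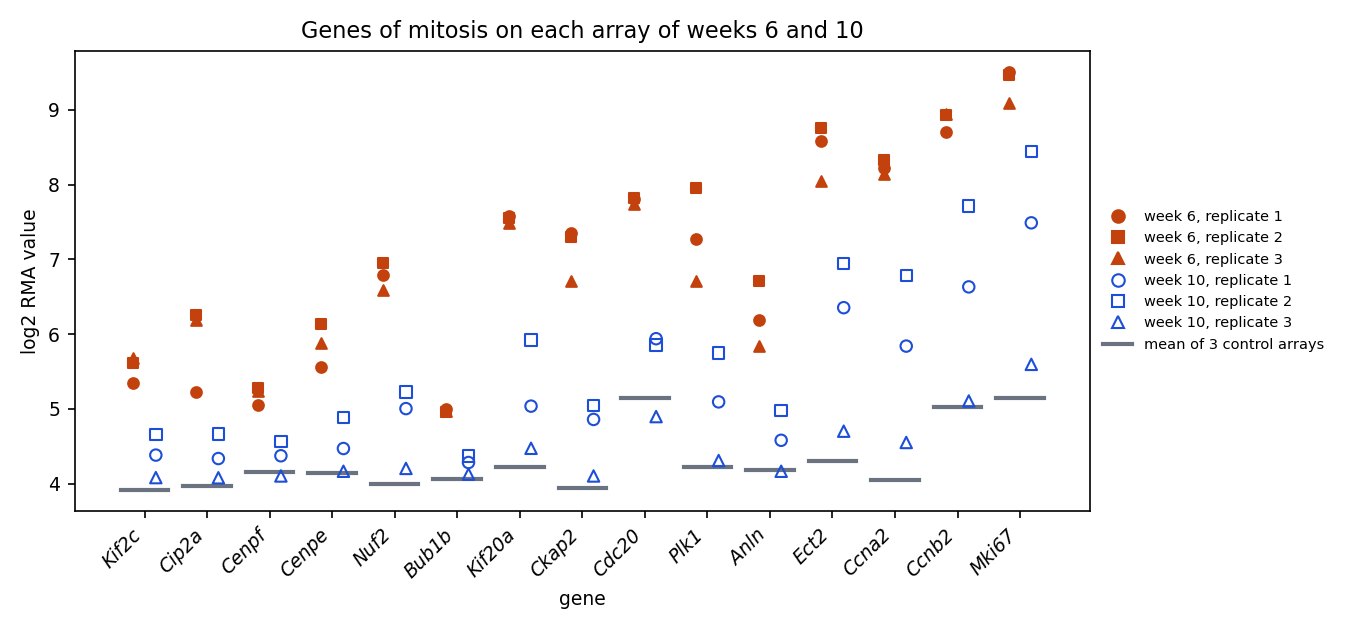
Log2 values of 15 genes of mitosis and cell division on each of 3 week 6 arrays (filled) and 3 week 10 arrays (open), with the mean of 3 control arrays as a grey line. Every week 6 symbol lies above every week 10 symbol of the same gene, and replicate 3 of week 10 (open triangle) lies nearest to control, or below it, for each gene.

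The mitotic kinase Plk1 and the proliferation antigen Mki67 had differences of -2.11 each and were called with neither set (adjusted p = 0.243 and 0.572 with 17 samples). Mki67 read 9.51, 9.46 and 9.09 at week 6, and 7.49, 8.44 and 5.595 at week 10, where the arrays spread over 2.85 log2 units. The cyclins of mitotic entry had the same form. Ccna2 (cyclin A2) read 8.22, 8.32 and 8.14 against 5.84, 6.78 and 4.55, a difference of -2.48 (0.355 and 0.121), and Ccnb2 read 8.71, 8.92 and 8.94 against 6.63, 7.71 and 5.11, a difference of -2.39 (0.463 and 0.198). Week 10 spread over 2.23 log2 units in it and 2.61 in Ccnb2. Cdk1, the kinase that cyclins A and B switch on, had -1.53, and Cdkn1a (p21, an inhibitor of cyclin-dependent kinases and a target of p53) had -1.82, from 10.57, 10.50 and 9.52 to 8.41, 8.68 and 7.54. In the list of 31 cyclins, kinases and regulators 0 were called with either set and 10 were lower at an unadjusted p under 0.05 (limma). Lower by more than 1.5-fold with no overlap were 5 (16.1%, against 0.87% of all genes): Ccna2, Ccnb2, Cdkn3, Cdkn1a and Cdk1. The median was -0.22 (-0.13 without replicate 3 of week 10). The G1 cyclins differed little: Ccnd1 had -0.34, Ccnd2 0.26, Ccnd3 0.17 and Ccne1 -0.07, none called.

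Genes of DNA replication differed less than those of mitosis. Of 29 measured, 27 were lower at week 10, and 0 were called by limma with 17 samples or 18 arrays (1 lower at an unadjusted p under 0.05). Lower by more than 1.5-fold with no overlap were 6 (20.7%, against 0.87% of all genes), and the median was -0.31. With 1 array left out it became -0.18 (replicate 3 of week 10), -0.44 (replicate 2 of week 10) or -0.47 (replicate 3 of week 6). The helicase subunit Mcm6 read 7.65, 7.59 and 7.60 at week 6 and 7.17, 7.31 and 4.995 at week 10, and the ribonucleotide reductase subunit Rrm2 read 8.00, 8.30 and 8.15 against 7.37, 7.64 and 6.08. In both genes replicates 1 and 2 of week 10 lay within 0.622 of the lowest week 6 array, and replicate 3 stood apart below them. Over the whole list the mean level above control was 0.763, 0.904 and 0.74 on the week 6 arrays and 0.532, 0.653 and -0.03 on the week 10 arrays. The same measure over the mitosis list was 1.5, 1.68 and 1.46 at week 6, and 0.501, 0.897 and 0.06 at week 10. Replicate 2 of week 10, the array with acinar RNA, was thus the highest of its group for both lists, and without it the mitosis median was -1.09. Without replicate 3 of week 10 it was -0.69. Among 12 tubulin genes 3 were lower by more than 1.5-fold with no overlap (25%, against 0.87% of all genes), and the list median was -0.06. The 3 were Tubb6 (-1.497), Tubb2a (-1.14) and Tubb5 (-0.70), which encode beta chains. Tubulin genes are alike in sequence and their probes may not tell them apart.

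Set beside all other groups, week 6 was the group that stood apart for mitosis. All 3 week 6 arrays lay above all 15 other arrays for 41 of 52 mitosis genes (78.8%, against 329 of 23111 genes, 1.42%). The list's mean level above control ran from 0.204 to 0.903 over the week 2 arrays, from 0.051 to 0.677 at week 4, from 1.46 to 1.68 at week 6, from 0.11 to 0.649 at week 8 and from 0.064 to 0.897 at week 10. Kif2c averaged 4.40 ± 0.221 at week 2, 4.15 ± 0.165 at week 4, 5.58 ± 0.139 at week 6 (n = 2), 4.10 ± 0.136 at week 8 and 4.37 ± 0.289 at week 10, against 3.92 ± 0.056 in control (SD, n = 3 elsewhere). Against control it was higher by 1.66 at week 6 (adjusted p = 0.000143) and by 0.46 at week 10 (0.0839). Both comparisons use the same control arrays and the arrays compared above.

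**Figure D3:**
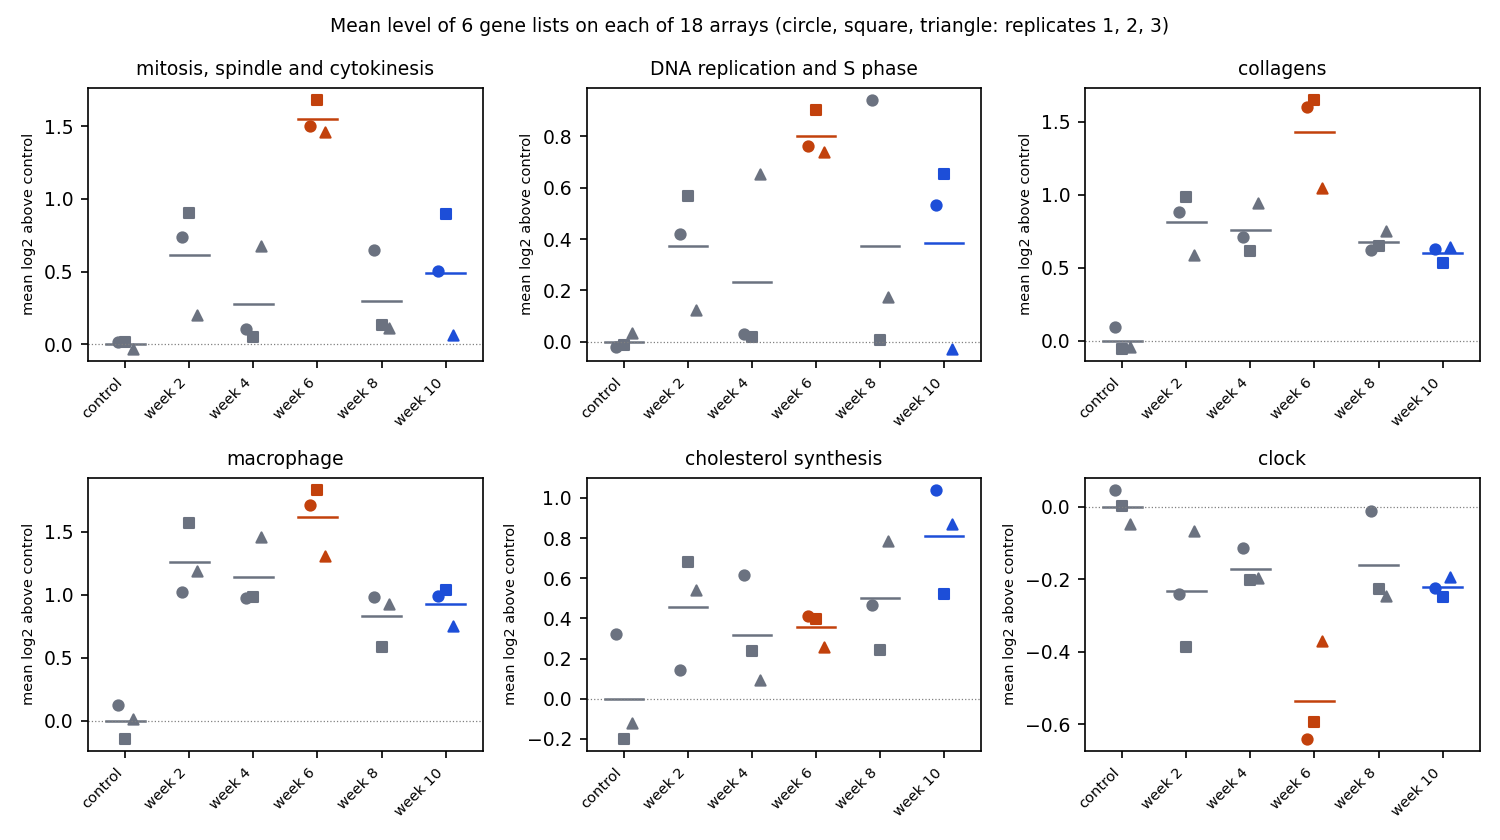
Mean log2 value of each list's measured genes on each of 18 arrays, after subtracting each gene's mean of 3 control arrays; symbols give replicates 1, 2 and 3, short lines the mean of 3 arrays, and the dotted line control. Week 6 is the highest group for mitosis, collagens and macrophages and the lowest for clock genes, and week 10 is the highest for cholesterol synthesis.

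Collagen genes were lower at week 10, by an amount that depended on which week 6 array they were set against. Of 18 collagen genes, 17 were lower, and 0 were called by limma with 17 samples (12 were lower at an unadjusted p under 0.05). With 18 arrays 7 were called (38.9%, against 0.208% of all genes): Col1a1, Col1a2, Col3a1, Col5a1, Col6a2, Col6a3 and Col12a1. Lower by more than 1.5-fold with no overlap were 9 (50%, against 0.87%), and the median was -0.59. Col1a1, a chain of the fibrillar collagen of scars, read 10.97, 10.87 and 9.87 at week 6 and 8.32, 8.52 and 8.35 at week 10, with a control mean of 5.57. Its difference was -1.998 (SE 0.483, adjusted p = 0.213 with 17 samples and 0.0462 with 18 arrays), a level that still lay above control by 2.83 (adjusted p = 0.00395). Col3a1, of the finer fibrils, read 10.03, 10.18 and 8.89 against 7.73, 7.95 and 8.05, a difference of -1.58 (0.2 and 0.0416). Replicate 3 of week 6 lay between the other week 6 arrays and the week 10 arrays in both genes.

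Some microfibrillar and fibril-associated collagens lay near control at week 10. Col6a2, a chain of collagen VI, read 6.90, 7.35 and 6.47 at week 6 and 6.02, 5.76 and 6.03 at week 10, against 5.82 in control, a difference of -0.86 (0.0799 and 0.0268). Col12a1, which coats fibrils, read 5.04, 5.57 and 4.74 against 4.17, 4.13 and 4.29, with 4.12 in control, a difference of -0.83 (0.0568 and 0.0206). Over all collagens the mean level above control was 1.60, 1.65 and 1.05 on the week 6 arrays and 0.63, 0.536 and 0.646 on the week 10 arrays. The median difference was -0.39 when the week 10 mean was set against replicate 3 of week 6 alone, and -0.85 against the mean of replicates 1 and 2. Without replicate 3 of week 6, which leaves 16 samples and n = 1 at week 6, the median was likewise -0.85, and the lone week 6 sample has no spread of its own.

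Other matrix genes had smaller medians. Sparc, a collagen-binding matricellular protein, read 11.64, 11.56 and 11.17 against 10.27, 10.40 and 10.19, a difference of -1.09 (0.0982 and 0.0206). It was the 1 gene called with 18 arrays among 27 of that list (3.7%, against 0.208% of all genes). That list had a median of -0.30, and 6 were lower by more than 1.5-fold with no overlap (22.2%, against 0.87%). Among 25 genes of matrix remodelling the median was -0.40 (-0.22 without replicate 2 of week 10 and -0.61 without replicate 3 of week 6). Of these, 8 were lower by more than 1.5-fold with no overlap (32%, against 0.87% of all genes). The macrophage elastase Mmp12 read 9.11, 9.20 and 8.14 at week 6 and 5.86, 7.27 and 6.30 at week 10, against 5.53 in control, a difference of -2.17 (0.226 and 0.0471), and the protease Adamts12 had -0.67 (0.0206 with 18 arrays). The crosslinking enzymes Loxl1, Lox and Loxl2 had -0.93, -0.79 and -0.73. Over the alternatives run these differences went from -1.45 to -0.765, from -1.362 to -0.68 and from -1.355 to -0.66. The inhibitor Timp1 had -0.89 with replicate 3 of week 6 (4.13) inside the week 10 range of 4.07 to 4.33.

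All 24 genes of myofibroblast activation were lower at week 10, with a median of -0.29 (-0.45 without replicate 3 of week 6). But 1 was called with 18 arrays (4.17%, against 0.208% of all genes), and 3 were lower by more than 1.5-fold with no overlap (12.5%, against 0.87%). Acta2, the actin of myofibroblasts and of smooth muscle, read 9.40, 9.52 and 7.54 at week 6 and 6.92, 6.73 and 6.82 at week 10, a difference of -1.67 (0.178 and 0.037), with 6.06 in control. Replicate 3 of week 6 was 1.86 log2 units or more below the other week 6 arrays and still above week 10. Vim (vimentin) had -1.15, and the receptor Pdgfra -0.81. Markers of other cells differed too. The 6 smooth muscle markers averaged 0.806, 0.887 and 0.389 above control at week 6 and 0.191, 0.11 and 0.201 at week 10. Acta2 is itself 1 of these 6 and weighs on the averages, and the median difference was -0.27, with 5 lower and 1 higher. Myh11, the defining myosin, had -0.41 (0.178 and 0.0471), Smtn -0.45, Actg2 -0.14 and Cnn1 -0.04. The 6 mesothelial markers averaged 0.987, 1.25 and 0.224 against 0.68, -0.40 and 0.184. By limma 0 of the 6 were called, and 2 were lower at an unadjusted p under 0.05 (4.34% of all genes). The part of these cells in the matrix differences was not tested. In bulk liver, fewer cells of a type and less RNA per cell cannot be told apart.

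**Figure D4:**
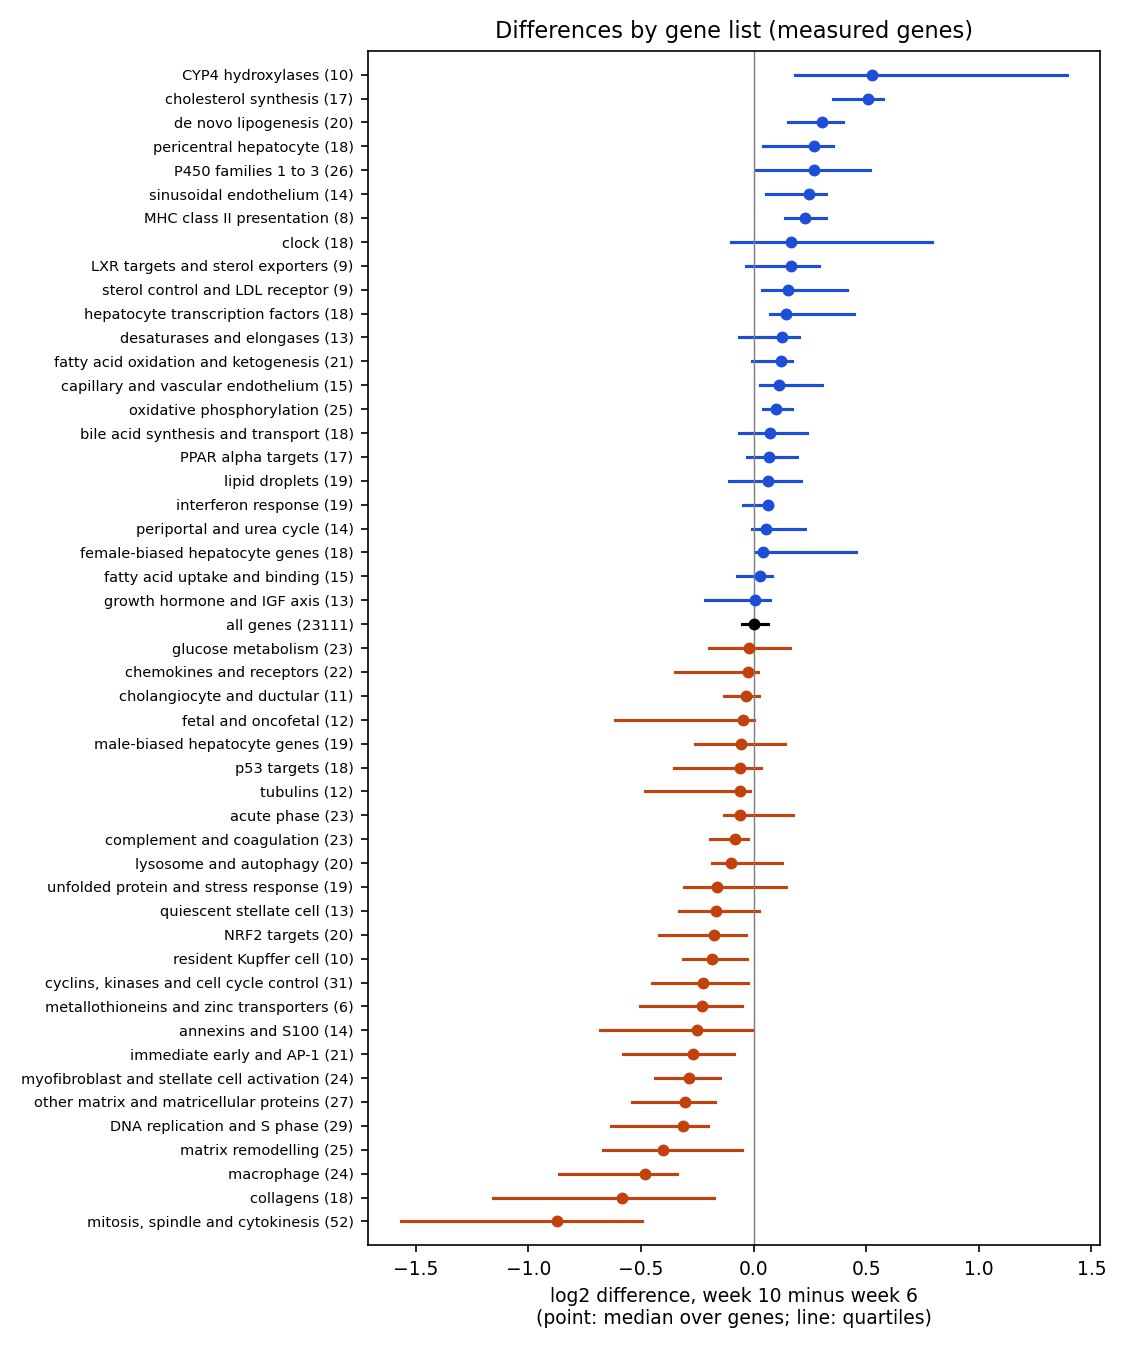
Median (point) and quartiles (line) of the log2 difference, week 10 minus week 6, over the measured genes of each of 48 lists, with the number of genes in brackets and all 23111 genes in black. Mitosis (-0.87), collagens (-0.59) and macrophages (-0.48) lie farthest left, and CYP4 hydroxylases (0.53) and cholesterol synthesis (0.51) farthest right.

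Macrophage genes were lower at week 10 in 23 of 24 cases, with a median of -0.48. None was called by limma with 17 samples (10 were lower at an unadjusted p under 0.05). With 18 arrays 1 was called (4.17%, against 0.208% of all genes), and 8 were lower by more than 1.5-fold with no overlap (33.3%, against 0.87%). Itgam (CD11b, the integrin of infiltrating myeloid cells) read 6.09, 6.60 and 5.69 at week 6 and 4.90, 4.78 and 4.78 at week 10, a difference of -1.20 (0.14 and 0.0355), with 4.41 in control. Gpnmb, a glycoprotein of lipid-laden and scar-associated macrophages, read 10.33, 10.40 and 9.40 against 7.27, 8.19 and 8.07, a difference of -2.04 (0.258 and 0.0639) that left week 10 above its control mean of 4.40 by 3.44 (adjusted p = 0.00275). Lgals3 (galectin 3) had -1.52, the receptor Trem2 -0.85 and the protease Ctss -0.99, each without overlap and none called. Adgre1, a surface receptor used to mark mouse macrophages and named by the study for these mice, read 7.68, 7.60 and 7.28 against 7.11, 7.02 and 6.97, a difference of -0.43. The 10 genes of resident Kupffer cells had a median of -0.18, with 0 called by limma with either set and 0 at an unadjusted p under 0.05. Of these 10, 7 were lower and 3 higher, and 0 were lower by more than 1.5-fold with no overlap (against 0.87% of all genes). Marco had -1.28, and Clec4f, which defines these cells, had 0.03. Mean levels of the Kupffer list above control did not overlap (0.597 to 0.784 at week 6, 0.301 to 0.569 at week 10). Markers of T and NK cells, B and plasma cells, neutrophils, dendritic cells, mast cells, erythroid cells and adipocytes had list medians between -0.05 and 0.03. Single markers differed more, such as Jchain of plasma cells (-0.82), Hbb-bt of erythroid cells (-1.38) and Kit of mast cells (0.45), none called. Mean levels above control did not overlap for B and plasma cells (0.102 to 0.219 at week 6, 0.012 to 0.041 at week 10). Those of mast cells did not overlap either (-0.015 to 0.022, 0.035 to 0.136). Against replicate 3 of week 6 alone the macrophage median was -0.27, and against the mean of replicates 1 and 2 it was -0.71.

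Genes of sterol synthesis were higher at week 10. All 17 measured genes of cholesterol synthesis had a higher mean, the median was 0.51, 3 were higher by more than 1.5-fold with no overlap (17.6%, against 0.459% of all genes), and 0 were called by limma with either set (6 were higher at an unadjusted p under 0.05). Lss (lanosterol synthase) read 8.88, 8.98 and 8.91 at week 6 and 10.22, 9.55 and 9.49 at week 10, a difference of 0.83 (0.558 and 0.268). Its control mean was 7.87, and week 10 lay above it by 1.88 (adjusted p = 0.00619). Mvd, which makes isopentenyl diphosphate, read 6.98, 6.61 and 6.56 against 7.79, 7.18 and 7.41, and Tm7sf2, a sterol reductase, read 8.96, 8.97 and 9.14 against 10.01, 9.24 and 9.74. In all 3 genes replicate 1 of week 10 was the highest array. The list's mean level above control was 0.412, 0.397 and 0.257 at week 6 and 1.04, 0.521 and 0.869 at week 10, where the lowest array was the one with acinar RNA. The median was 0.68 without that array. All 14 promoter windows of this list held CCAAT, against 41.9% of measured genes.

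Lipogenesis depended on replicate 3 of week 6. The 20 genes had a median of 0.30, and the list's mean level above control was -0.16, -0.13 and 0.643 on the week 6 arrays and 0.907, 0.421 and 0.354 on the week 10 arrays. Replicate 3 of week 6 thus lay inside the week 10 range. Set against it alone the median difference was -0.05, and against replicates 1 and 2 it was 0.65. Without replicate 1 of week 10 it was 0.16. Fasn, the fatty acid synthase, read 11.10, 11.12 and 12.40 at week 6 and 12.75, 12.03 and 11.64 at week 10, a difference of 0.39 (adjusted p = 0.901). Acss2, which makes acetyl-CoA from acetate, was the only member higher by more than 1.5-fold with no overlap, at 10.15, 10.15 and 10.57 against 11.74, 10.89 and 11.29, a difference of 0.95 (0.498 and 0.188). The regulator Srebf1 had 0.44, and the desaturase Scd1 0.27, neither called.

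The fatty acid hydroxylases of the CYP4 family had wide and uneven differences. All 10 were higher at week 10, with a median of 0.53 (0.34 without replicate 3 of week 10) and 0 called by limma with either set (2 higher at an unadjusted p under 0.05). Higher by more than 1.5-fold with no overlap were 2 (20%, against 0.459% of all genes). Cyp4a14, a target of PPAR alpha, read 5.42, 5.49 and 4.99 at week 6 and 8.73, 6.24 and 6.75 at week 10, a difference of 2.02 (SE 0.923, adjusted p = 0.6). Cyp4a10, another such target, read 7.61, 7.29 and 6.996 against 9.80, 8.35 and 8.72. Replicate 1 of week 10 was the highest array in both. The 17 targets of PPAR alpha had a median of 0.07 (0.02 without replicate 1 of week 10), and without these CYP4 genes none was higher by more than 1.5-fold with no overlap. Ppara itself read 8.31, 8.37 and 8.69 against 9.06, 8.93 and 9.13, a difference of 0.52 (0.243 and 0.0524).

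Among 26 cytochromes of families 1 to 3 the median was 0.27, which was 0.08 without replicate 3 of week 10 and 0.45 without replicate 2. The list's level relative to control was -0.885, -0.884 and -0.53 at week 6, and -0.186, -0.785 and -0.09 at week 10, where replicate 2, the array with acinar RNA, lay inside the week 6 range. Higher by more than 1.5-fold with no overlap were 3 (11.5%, against 0.459% of all genes). With 18 arrays 1 was called (3.85%, against 0.0736%), Cyp2c40. It read 4.04, 4.44 and 4.61 at week 6 and 5.77, 5.45 and 6.10 at week 10, a difference of 1.35 (0.21 and 0.0489), and stood far below its control mean of 8.11 at both weeks (week 10 minus control -2.34, adjusted p = 0.00127). Genes of the Cyp2c cluster are alike in sequence and their probes may not separate them. Cyp2e1, which activates CCl4, read 13.11, 13.07 and 12.39 against 13.27, 12.29 and 13.56, a difference of 0.30 with overlapping groups. The glutamine synthetase Glul, of the cells next to the central vein, had 0.17. The steroid hydroxylase Cyp17a1 read 7.80, 7.99 and 7.99 against 8.81, 9.03 and 9.91, a difference of 1.31 (0.546 and 0.246), and Bcl6, a repressor of female-biased liver genes, read 7.59, 7.59 and 8.63 against 5.82, 5.79 and 6.49, a difference of -2.08 (0.566 and 0.333). The lists of male-biased and female-biased genes had medians of -0.06 and 0.04. The first was 0.02 and 0.05 without replicate 1 or 2 of week 10, and the second 0.12 without replicate 3 of week 6.

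The clock genes differed in both directions. Of 18, 1 was called with 18 arrays, as higher (5.56%, against 0.0736% of all genes), and 0 by limma with 17 samples. At an unadjusted p under 0.05, 1 was lower (4.34% of all genes) and 7 were higher (3.87% of all genes). By more than 1.5-fold with no overlap, 5 were higher (27.8%, against 0.459% of all genes) and 1 lower (5.56%, against 0.87%). The median was 0.17 (0.25 without replicate 3 of week 6, and 0.23 without replicate 2 of week 10). Dbp, an activator that follows the clock closely, read 7.02, 7.11 and 9.15 at week 6 and 10.01, 9.82 and 9.73 at week 10, a difference of 1.74 (SE 0.497, adjusted p = 0.293 and 0.0722), with 10.36 in control. Tef, a related factor, read 4.81, 4.92 and 5.91 against 6.34, 6.33 and 6.31, a difference of 0.94 (0.226 and 0.0471), with 6.79 in control. Arntl (BMAL1), whose RNA peaks in the opposite part of the day, read 6.62, 6.62 and 5.34 against 4.61, 4.62 and 5.17, a difference of -1.18 (0.285 and 0.0709), with 4.21 in control. In all 3 genes replicate 3 of week 6 lay between the other week 6 arrays and week 10. Per2, Per3 and Cry2, repressors of the clock, had 0.84, 0.86 and 0.83. The mice lived in a 12-h light and dark cycle. The sources used here do not give the hour of killing, and its part was not tested.

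Immediate early genes, which respond within minutes to stress or feeding, had a median of -0.27 over 21 genes. It was -0.42 without replicate 3 of week 6 and -0.15 without replicate 3 of week 10. By limma 0 were called with either set, and 4 were lower at an unadjusted p under 0.05 (4.34% of all genes). Lower by more than 1.5-fold with no overlap were 2 (9.52%, against 0.87%). Fos read 8.08, 7.81 and 4.99 at week 6 and 4.80, 5.38 and 5.03 at week 10. Replicate 3 of week 6 lay inside the week 10 range, 2.83 log2 units or more below the other week 6 arrays. Jun read 8.58, 8.85 and 8.47 against 7.71, 7.79 and 7.28, a difference of -0.997 without overlap (0.596 and 0.29), and Egr1 overlapped (9.26, 9.05 and 7.34 against 5.74, 6.74 and 8.07).

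Sinusoidal endothelial cells line the hepatic sinusoids with a fenestrated sheet. Of 14 of their genes 11 were higher at week 10, and the median was 0.24 (0.14 without replicate 3 of week 10). With 18 arrays 2 were called (14.3%, against 0.0736% of all genes). The secreted nuclease Dnase1l3 read 8.01, 8.00 and 8.60 at week 6 and 9.11, 8.91 and 9.20 at week 10, a difference of 0.77 (0.221 and 0.0462), with 8.44 in control. The receptor Gpr182 read 7.20, 7.11 and 7.22 against 7.91, 7.79 and 7.63, a difference of 0.59 (0.154 and 0.037). The hyaluronan receptors Stab2 and Lyve1 had 0.30 and 0.21, and Stab1 had -0.28. Over the list the level above control was 0.09, 0.11 and 0.222 at week 6, and 0.393, 0.301 and 0.493 at week 10, with no overlap.

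**Figure D5:**
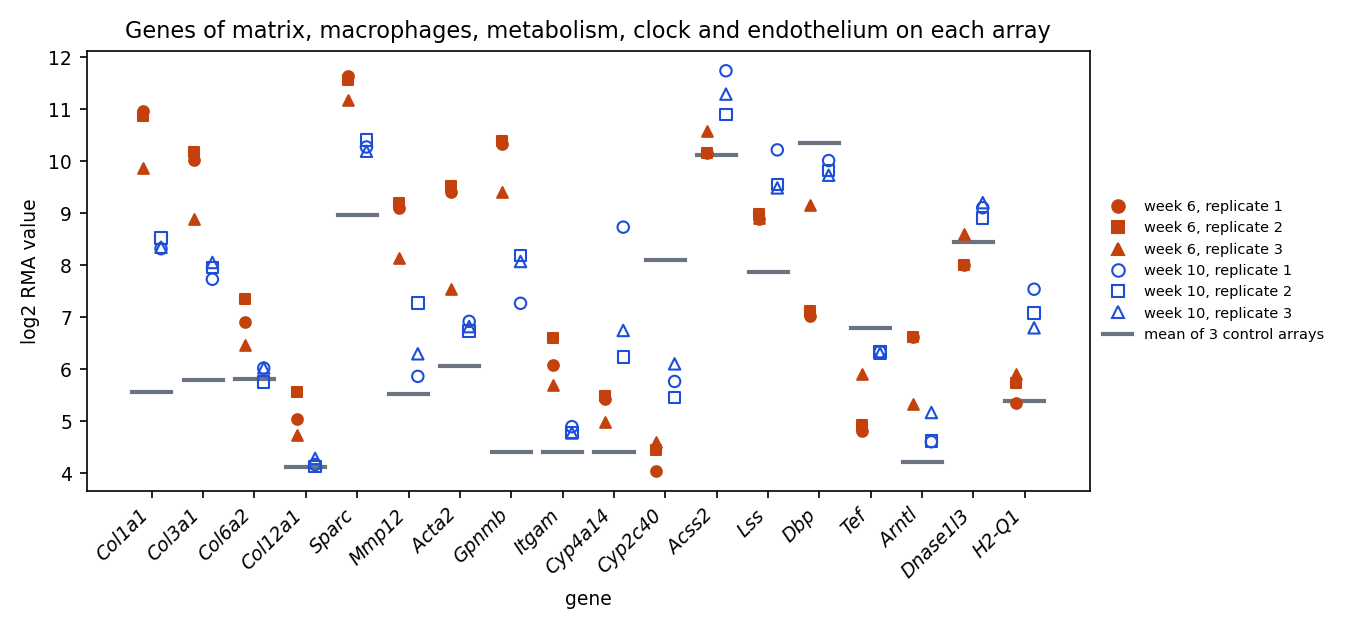
Log2 values of 18 genes of matrix, macrophages, lipid and sterol metabolism, the clock, endothelium and histocompatibility on each week 6 array (filled) and week 10 array (open), with the mean of 3 control arrays as a grey line. The groups do not overlap for any gene shown. Replicate 3 of week 6 (filled triangle) lies nearer to week 10 than replicates 1 and 2 do for all genes shown except Cyp4a14 and Lss.

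Single genes outside these groups were also called with 18 arrays. H2-Q1, a histocompatibility class I gene of the Q region, read 5.36, 5.73 and 5.90 at week 6 and 7.54, 7.08 and 6.80 at week 10, a difference of 1.42 (0.2 and 0.0471). It was higher than control by 0.32 at week 6 (adjusted p = 0.646) and by 1.74 at week 10 (adjusted p = 0.00784). Genes of the Q region are near copies of each other, and the value may include them. Il1r1, the receptor for interleukin 1, read 9.65, 9.64 and 9.65 against 8.51, 8.75 and 8.56, a difference of -1.04 (0.154 and 0.037), and its control mean of 9.47 lay near week 6. Coq10b, a coenzyme Q binding protein, read 7.59, 7.60 and 8.27 against 8.87, 9.08 and 8.70 (0.178 and 0.037), and Hspe1, the mitochondrial chaperonin HSP10, read 6.93, 6.96 and 6.98 against 7.55, 7.79 and 7.52, a difference of 0.66 (0.0651 and 0.0126). Fstl1, a secreted glycoprotein of mesenchymal cells, had -1.38 (0.0757 and 0.0187), and Anxa1, a phospholipid-binding annexin of myeloid cells, -1.60 (0.237 and 0.0489). The heavy chain of immunoglobulin A, Igha, read 7.94, 8.06 and 9.36 against 7.58, 5.25 and 5.92, a difference of -2.43 that was called with neither set (0.368 and 0.181).

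Of 18 hepatocyte transcription factors 14 had a higher mean, with a median of 0.14 (0.22 without replicate 2 of week 10). By limma 0 were called with either set, and 5 were higher at an unadjusted p under 0.05 (3.87% of all genes). Higher by more than 1.5-fold with no overlap was 1 (5.56%, against 0.459%). Cebpa, which holds hepatocytes in a differentiated and resting state, read 8.90, 8.89 and 9.11 at week 6 and 9.50, 9.62 and 9.73 at week 10, a difference of 0.62 without overlap (0.247 and 0.0639), with 9.83 in control. Foxa1, a pioneer factor of endoderm, read 5.55, 5.53 and 5.59 against 6.26, 5.87 and 6.24, a difference of 0.56 (0.451 and 0.179), with 6.60 in control. Both genes lay below control on all 6 arrays and nearer to it at week 10. Of 18 pericentral genes 15 were higher, with a median of 0.27, but their levels overlapped: relative to control they were -0.893, -0.876 and -1.09 at week 6 and -0.616, -1.18 and -0.366 at week 10. That median was 0.06 without replicate 3 of week 10 and 0.41 without replicate 2, and the median of 14 periportal genes was 0.06. Of 20 targets of NRF2, a regulator of the response to oxidative stress, 17 were lower, with a median of -0.18. It was -0.36 when the week 10 mean was set against replicate 3 of week 6 alone and -0.08 against replicates 1 and 2, -0.31 without replicate 1 of week 10, and the groups overlapped (0.235, 0.267 and 0.628 against 0.427, 0.288 and 0.001 above control). In the pericentral and NRF2 lists 0 were called by limma with either set. At an unadjusted p under 0.05, 1 of 18 pericentral genes was higher (3.87% of all genes) and 2 of 20 NRF2 targets were lower (4.34% of all genes).

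Other lists had small medians, some of them outside the quartiles of all genes (-0.05 and 0.06). Acute phase (-0.06), complement and coagulation (-0.08), the unfolded protein response (-0.16), glucose metabolism (-0.02), fatty acid oxidation (0.12), lipid droplets (0.06), bile acid genes (0.07), interferon response (0.06), chemokines (-0.03) and oxidative phosphorylation (0.10) had medians within 0.2 of 0 and 0 members called by limma with either set. At an unadjusted p under 0.05 (limma, 17 samples) 3.87% of all genes were higher and 4.34% lower. Acute phase, complement and the unfolded protein response had 0 such members. Bile acid (of 18), interferon (of 19) and oxidative phosphorylation genes (of 25) had 1 higher each. Fatty acid oxidation had 2 higher of 21, chemokines 3 lower of 22, and glucose metabolism 2 lower and 2 higher of 23. Lipid droplets had 1 lower and 4 higher of 19. Mean levels against control did not overlap for oxidative phosphorylation (-0.258 to -0.217 at week 6, -0.143 to -0.117 at week 10) and complement (-0.05 to -0.029, -0.196 to -0.089). Nor did they for lipid droplets (-0.412 to -0.358, -0.334 to -0.323) and chemokines (0.256 to 0.451, 0.063 to 0.24). The 8 genes of class II presentation had a median of 0.23, led by replicate 1 of week 10 (H2-Aa at 8.75 against 7.35 to 7.49 on the other 5 arrays), and the list's median was 0.01 without that array and 0.38 without replicate 2 of week 10.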

How the data were processed

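Liver RNA was hybridised to Affymetrix Mouse Gene 2.0 ST arrays. The authors used affyPLM (RMA) with a Brainarray chip definition, and the deposited values are log2 intensities, 1 per Entrez gene, quantile normalized across arrays. No RMA version is stated. Of 23748 features, 23111 with a gene name were tested and 637 left out (36 under an old symbol only). The number of arrays limits the precision.

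Groups were compared with limma 3.58.1 (lmFit, eBayes) in R 4.3.3, in 1 model over 17 samples and 6 groups, with the mean of week 6 replicates 1 and 2 as 1 sample. Adjustment was by Benjamini and Hochberg over all genes, with calls at 0.05 and a change of over 1.5-fold. Where 2 adjusted p stand in brackets, the first is from 17 samples and the second from 18 arrays, and "either set" means these 2. SE is from the model with 17 samples. Members and lists (48, and 11 of cell markers, 969 of 1032 genes measured) were chosen with earlier results of these data known, so each list is given by counts and medians. Named were genes called with 17 samples, the 15 largest differences each way called with 18 arrays without overlap, the 10 largest each way at an unadjusted p under 0.05 without overlap, the 5 largest members of each list, and genes the study names. Other genes, such as Cenpe, Bub1b, Racgap1, Col5a1, Col6a2, Col12a1, Il1r1 and Clec4f, were named after their values were seen. Promoters came from RefSeq tables. The procedure was tested on simulated data. Plots used Python 3.11.15 and matplotlib 3.10.9.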

Additional observations from a re-analysis of the deposited data

How the results depend on the processing

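The count of called genes depended on how the near-alike arrays and the spread were handled. Against 3 genes with 17 samples, limma called 65 with 18 separate arrays and 42 with 18 arrays and the replicate number as a block. The numbers do not pair the mice: the correlations of same-numbered deviations between weeks 6 and 10 were 0.113, -0.02 and -0.01. Without a fold threshold 5 genes were called, 17 with array weights, 12 with limma-trend and a robust prior, and 26 of 15216 after a filter on dim genes. No gene was called (0) when weeks 6 and 10 were fitted alone, which leaves few samples, or when the control was left out. An equal variance test per gene, on the same 17 samples but with no spread shared between genes, called 0 as well. Leaving out 1 array at a time gave 0 to 29 genes, with 29, 14 and 1 when replicate 3, 1 or 2 of week 6 was the one left out, 7 for replicate 2 of week 10, and 0 for its replicate 1 or 3 or for any 1 control. In 12 of the 18 runs none of the 3 genes called with 17 samples passed. The 29 genes and the 1 gene hold none of the 3, and both runs called 0 mitosis genes. The run without replicate 3 leaves n = 1 at week 6, whose spread is then borrowed from the remaining groups. The cause was not tested. Chosen after seeing the data, a threshold of 1.5 on the log2 scale left 1 gene (Cip2a), and 18 arrays gave 74 without replicate 2 of week 10 and 209 without replicate 3 of week 6, where the week's spread rests on the near-alike pair. The medians of mitosis (-1.14 to -0.69), DNA replication (-0.48 to -0.18), collagens (-0.85 to -0.56), macrophages (-0.71 to -0.39), cholesterol synthesis (0.38 to 0.68) and clock genes (0.13 to 0.25) kept their sign in the alternatives run.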
